A study of Mus musculus with 18 samples.

Results

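The genes examined here encode the machinery of mitochondrial and peroxisomal fatty acid oxidation, a list of 37 genes chosen by name. All 37 were found among the 54347 rows of the count table and all 37 passed the filter on low counts, which left 18728 genes for testing. They were divided by role into the carnitine shuttle (5 genes), the acyl-CoA dehydrogenases (8 genes), the core enzymes of the oxidation spiral (7 genes), the enzymes needed for unsaturated chains (5 genes), the electron transfer flavoproteins (3 genes) and the peroxisomal enzymes and transporters (9 genes).

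Polyadenylated RNA was sequenced from interscapular brown (iBAT), inguinal white (iWAT) and epididymal white adipose tissue (eWAT) of 12-week-old mice, to ask what the loss of the long noncoding RNA Gm15551 changes in adipose tissue. The 3 wild type (wt) and 3 knockout (ko) animals were litter mates of the C57BL/6N-ΔGm15551 strain and were fed a chow diet. The knockout was made with CRISPR/Cas9, which removed a stretch including exon 1 of Gm15551 from the germline and hence from all tissues, and the line was backcrossed to wild type animals. Each mouse gave 1 library per tissue, so that the 18 libraries formed 6 groups of 3.

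In fatty acid oxidation, a fatty acid is activated to its acyl-CoA, passes into the mitochondrion as a carnitine ester and is then shortened by a repeating sequence of dehydrogenation, hydration, a further dehydrogenation and thiolytic cleavage. Peroxisomes carry out a related sequence on very long and branched chains, which enter through ABC transporters of the D subfamily. In brown fat this pathway supplies the electrons whose energy is released as heat through Ucp1, whereas white fat mainly stores triglyceride.

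Total counts per library ranged from 14997901 to 34389586. Gm15551 had 40 to 316 counts per library in the wild type tissues and 0 to 4 in the knockout libraries. The labelled tissues differed in 9 thermogenic markers, with a sum of 7632 to 13340 for iBAT, 34.4 to 368 for iWAT and 16.1 to 29.6 for eWAT in CPM, a unit in which each count is divided by the scaled size of its library. In 4 white libraries, markers of another tissue were high. The summed lymph node markers reached 1065 CPM in iWAT wt replicate 3 and 455 CPM in iWAT ko replicate 2, against 4.60 to 19.6 CPM in the other iWAT libraries. The summed skeletal muscle markers reached 4805 CPM in iWAT ko replicate 1, against 4.08 to 7.88 CPM in the other iWAT libraries, and the summed epididymis markers reached 3582 CPM in eWAT ko replicate 3, against 0.0429 to 29.9 CPM in the other eWAT libraries. The part of this other tissue in the values below was not tested, and where leaving out these 4 libraries changes a call between brown and white fat, both values are given.

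The fatty acid oxidation genes were far more abundant in brown than in white fat. Together they took up 2.28% to 2.61% of all counts in the brown libraries, against 0.474% to 0.919% in iWAT and 0.465% to 0.703% in eWAT, so that the iBAT libraries lay above every white library before any scaling. Of the 37 genes, 34 were higher and 2 were lower in iBAT than in iWAT (edgeR quasi-likelihood test, adjusted p below 0.05), where 24.0% of all genes tested were higher and 30.3% lower. Against eWAT, 31 were higher and 2 were lower, with 24.4% of all genes higher and 30.2% lower. The median log2 fold change of the 37 genes was 1.78 against iWAT and 2.10 against eWAT, beside -0.15 and -0.17 over all genes tested. The 6 iBAT libraries did not overlap with the 6 iWAT libraries for 35 of the 37 genes, nor with the 6 eWAT libraries for 32, where 34.6% and 37.3% of all genes tested did not overlap. Both comparisons use the same iBAT libraries, and in bulk tissue a different number of adipocytes cannot be told apart from a different amount of RNA per adipocyte. The summed CPM of the 37 genes relative to that of 9 adipocyte markers was 1.295 to 1.95 for iBAT, 0.195 to 0.238 for iWAT and 0.151 to 0.219 for eWAT, a ratio that was chosen after the values were seen. Of the 9 adipocyte markers themselves, 2 were higher and 4 lower in iBAT in each comparison, so the ratio is not a level per adipocyte. All 7 immune markers were lower in iBAT in each comparison, with median log2 fold changes of -2.80 and -1.96, and their part was not tested.

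**Figure D1:**
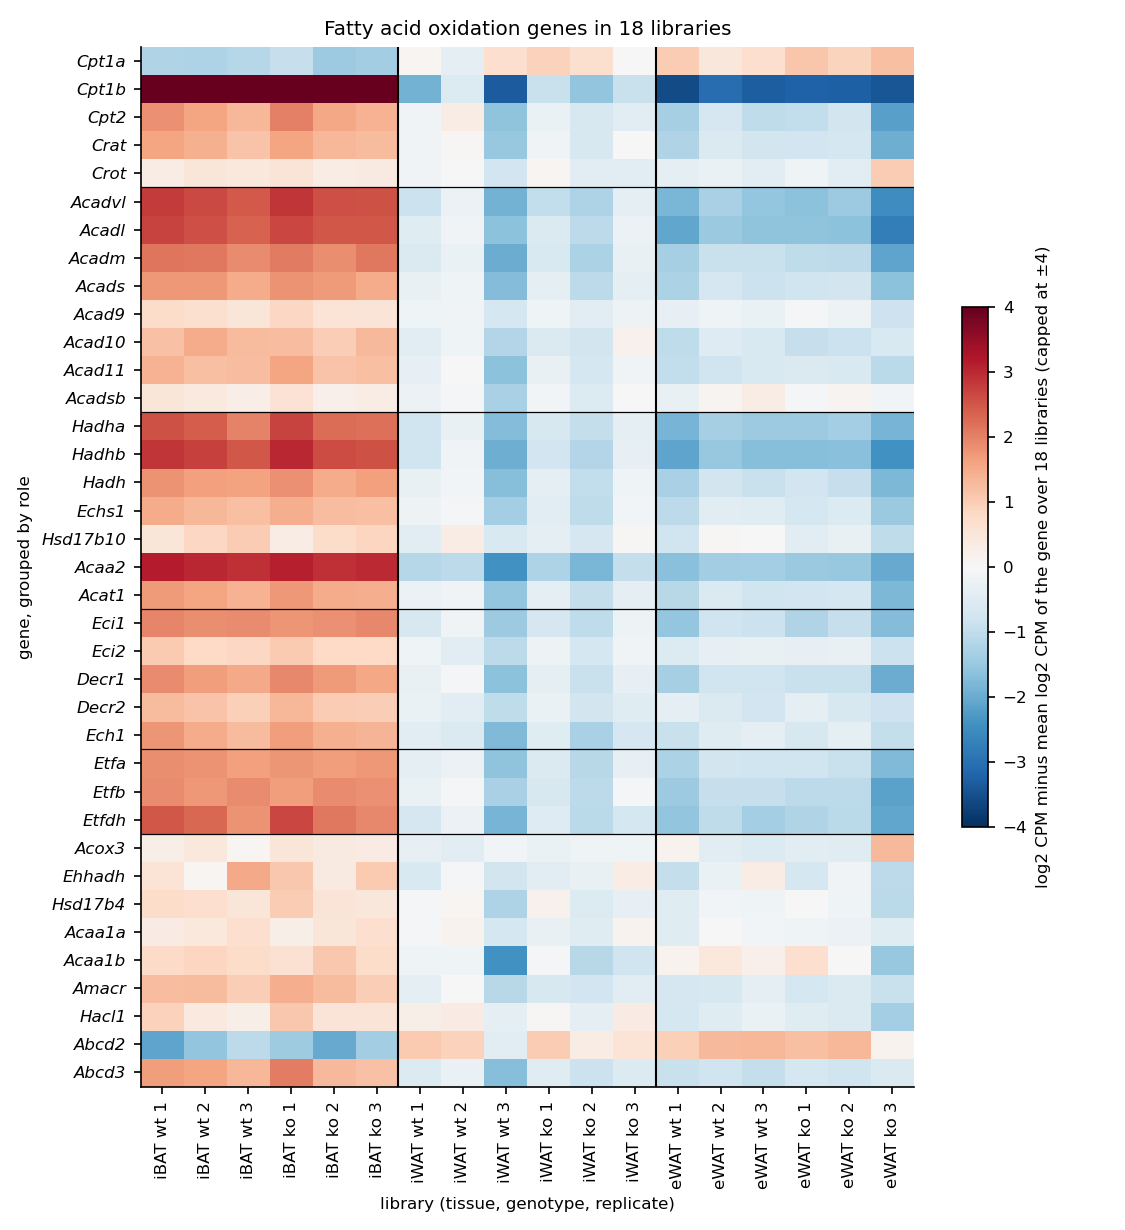
Colour shows the log2 CPM of each gene (rows, grouped by role) in each of the 18 libraries (columns), relative to the gene's own mean, with red above and blue below it. The 6 iBAT columns are red for all genes but Cpt1a and Abcd2, iWAT wt replicate 3 is the palest or bluest iWAT column, with the lowest value for 33 of the 37 genes, and eWAT ko replicate 3 stands out in red for Crot and Acox3.

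The carnitine shuttle held both the gene with the largest difference and 1 of the 2 genes that moved the other way. Cpt1b (ENSMUSG00000078937.8; GRCm38 chromosome 15, 89416405 to 89425863, minus strand) encodes the muscle type of carnitine palmitoyltransferase 1, the enzyme of the outer mitochondrial membrane that makes acylcarnitine and sets the pace of the pathway. Its CPM was 948.5 at the lowest, 1229 at the median and 1545 at the highest in iBAT. In iWAT it ranged from 4.25 over a median of 18.7 to 29.6 CPM, and in eWAT from 3.61 over a median of 4.43 to 5.24 CPM. The lowest brown library thus exceeded the highest white library by far. The log2 fold change was 6.13 ± 0.38 (SE; adjusted p = 2.9e-09 by edgeR) against iWAT and 8.13 ± 0.42 (adjusted p = 2.58e-10) against eWAT.

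Cpt1a (ENSMUSG00000024900.5; GRCm38 chromosome 19, 3322334 to 3385733, plus strand) encodes the liver type of the same enzyme. Its CPM was 13.7 at the lowest, 16.1 at the median and 20.04 at the highest in iBAT, against 29.2, 49.8 and 72.1 in iWAT and 52.0, 73.3 and 86.1 in eWAT. All brown libraries lay below all white libraries. It was 3.04-fold lower in iBAT than in iWAT and 4.32-fold lower than in eWAT, with a log2 fold change of -1.60 ± 0.19 (adjusted p = 2.16e-06) and -2.11 ± 0.19 (adjusted p = 7.97e-08).

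Per kilobase of transcript, Cpt1b therefore made up 98.8% to 99.2% of the summed level of both genes in the iBAT libraries, but 9.49% to 60.2% in those of iWAT and 6.498% to 13.1% in those of eWAT. The iWAT libraries differed most among themselves, with the lowest share in wt replicate 3 and the highest in wt replicate 2. The mean log2 ratio of Cpt1b over Cpt1a was higher in iBAT than in iWAT by 7.88 ± 1.19 (SD over 6 mice) and higher than in eWAT by 10.2 ± 0.52, in 6 of 6 mice each. These were the smallest p-values that the exact sign-flip permutation test over 6 mice allows (two-sided p = 0.031), and over the 12 pair comparisons they were adjusted to 0.0625. Between iWAT and eWAT the ratio was higher in iWAT in 5 of 6 mice (mean difference 2.32 ± 1.32, p = 0.0625 in the same exact test, adjusted 0.107).

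The remaining shuttle genes followed Cpt1b in direction, at smaller size. Cpt2, which turns acylcarnitine back into acyl-CoA inside the mitochondrion, was measured at 499.4 to 803.4 CPM in iBAT, but 65.9 to 245 CPM in iWAT and 44.8 to 126.6 CPM for eWAT, with a log2 fold change of 1.99 ± 0.28 and 2.70 ± 0.28. Crat, the carnitine acetyltransferase that buffers short acyl groups, differed by 1.70 ± 0.25 and 2.32 ± 0.26 on the log2 scale. Crot, the peroxisomal carnitine octanoyltransferase, was 1.58-fold higher in iBAT than in iWAT (adjusted p = 0.0168), a call that was lost without the mouse wt replicate 3 (log2 0.56, adjusted p = 0.0691). Against eWAT its log2 difference of 0.43 ± 0.22 did not pass the test (adjusted p = 0.105). It passed without the mouse ko replicate 3 (0.75, adjusted p = 0.000361 by edgeR), without the 4 libraries (0.74, adjusted p = 4.93e-06) and in wild type libraries only (0.78, adjusted p = 0.00925).

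**Figure D2:**
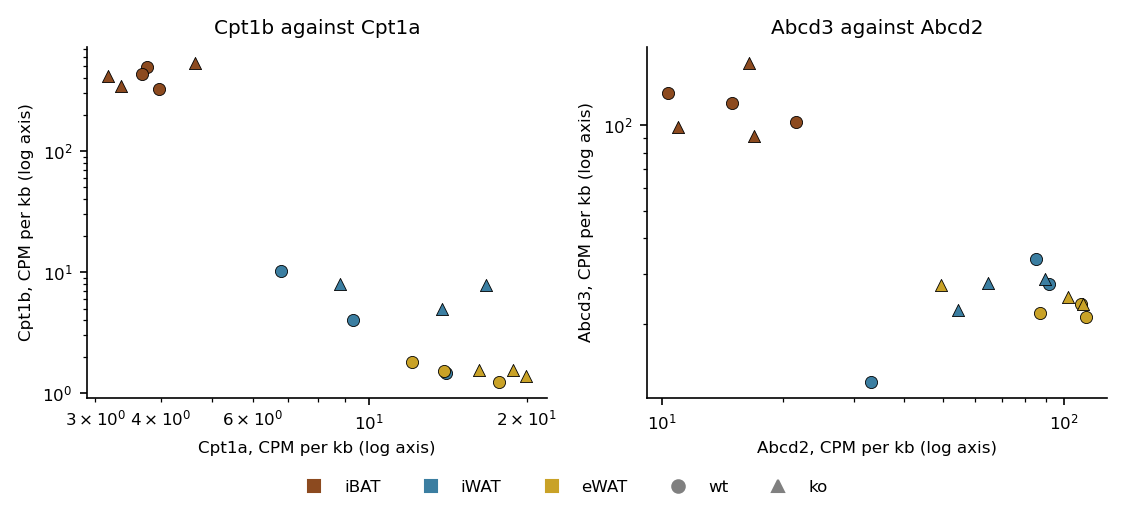
Each point is 1 library, with the level per kilobase of Cpt1b against Cpt1a (left) and of Abcd3 against Abcd2 (right) on log axes, tissue by colour and genotype by shape. In both panels the 6 iBAT libraries lie at the upper left, away from the 12 white libraries, and the iWAT libraries spread over Cpt1b levels of 1.47 to 10.2 CPM per kb.

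All 8 acyl-CoA dehydrogenases, which take the first pair of electrons from the acyl chain, were higher in iBAT than in iWAT, and 7 of 8 were higher than in eWAT. The differences were largest for the enzymes of long chains. Acadvl, the very long chain dehydrogenase (chromosome 11, 70010183 to 70015411, minus strand), was measured at 3091 to 4122 CPM in iBAT with a median of 3482, at 152.5 to 480.4 CPM in iWAT with a median of 302.5, and at 102 to 234 CPM in eWAT with a median of 189. Its log2 fold change was 3.49 ± 0.27 against iWAT and 4.31 ± 0.28 against eWAT. Acadl, the long chain dehydrogenase, ranged from 2822 to 3594 CPM in iBAT, but from 175.7 to 503.2 CPM in iWAT and from 80.4 to 198.7 CPM in eWAT. This gave log2 fold changes of 3.15 ± 0.26 and 4.35 ± 0.28.

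Acadvl and Acadl were ordered differently in the 2 comparisons, and from these long chain enzymes the differences stepped down to medium and short chains. Acadm, for medium chains, differed by 2.76 ± 0.27 on the log2 scale against iWAT and 3.20 ± 0.28 against eWAT, and Acads, for short chains, by 2.24 ± 0.24 and 2.63 ± 0.24. Differences between these genes were not tested. Acad10 and Acad11, which accept other chains, rose by 1.68 ± 0.18 and 1.73 ± 0.20 against iWAT, and Acad9, better known as an assembly factor of respiratory complex I, by 0.92 ± 0.12. Acadsb, which acts on short branched chains from amino acid breakdown, was 1.62-fold higher than in iWAT (adjusted p = 0.00312), while its log2 difference of 0.36 ± 0.17 against eWAT did not pass the test (adjusted p = 0.0942). The call of Acadsb against iWAT was lost in wild type libraries only, at a log2 difference of 0.82 (adjusted p = 0.0612), and that against eWAT was made without the 4 libraries (log2 0.32, adjusted p = 0.0204) and without the mouse wt replicate 3 (0.44, adjusted p = 0.00825). Within a library, Acadl and Acadvl stayed close to each other. The log2 ratio of Acadl over Acadvl was lower in iBAT than in iWAT by 0.35 ± 0.15 (SD) in 6 of 6 mice and higher in iWAT than in eWAT by 0.41 ± 0.13 in 6 of 6 mice (exact sign-flip permutation test, p = 0.031 and adjusted p = 0.0625 for both). Between iBAT and eWAT this ratio did not differ detectably (mean difference 0.06 ± 0.16, higher in 4 of 6 mice, p = 0.375 in the same exact test, adjusted 0.409).

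All 7 core enzymes of the spiral were higher in iBAT than in both white tissues. Hadha and Hadhb encode the 2 subunits of the mitochondrial trifunctional protein, which carries out the last steps on long chains. Hadhb was measured at 3688 to 5357 CPM in iBAT with a median of 4226, at 172.7 to 603.5 CPM in iWAT with a median of 385.1, and at 122.3 to 233 CPM in eWAT with a median of 203.2. Hadha ranged from 2244 to 3702 CPM in iBAT, but from 170.6 to 463.1 CPM in iWAT and from 154.9 to 223.9 CPM in eWAT. The brown and white libraries did not overlap for either gene. The log2 fold changes were 3.10 ± 0.22 for Hadha and 3.47 ± 0.27 for Hadhb against iWAT, and 3.90 ± 0.23 and 4.55 ± 0.29 against eWAT.

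Acaa2, the mitochondrial thiolase, showed the largest difference after Cpt1b against both white tissues. Its CPM was 2484 at the lowest, 2626 at the median and 2864 at the highest in iBAT, against 60.6, 143.8 and 170.1 in iWAT and 80.8, 115.9 and 127 in eWAT. The log2 fold change was 4.37 ± 0.23 (adjusted p = 6.57e-10) and 4.58 ± 0.24 (adjusted p = 2.82e-10). Hadh, the short chain hydroxyacyl-CoA dehydrogenase, Acat1, the thiolase of the last cleavage and of ketone use, and Echs1, the short chain hydratase, differed by 2.19 ± 0.24, 2.09 ± 0.23 and 1.78 ± 0.22 on the log2 scale against iWAT. Hsd17b10, a dehydrogenase that is also a subunit of mitochondrial RNase P, was 1.97-fold higher than in iWAT and 2.15-fold higher than in eWAT.

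Sequence upstream of the start was examined for the motifs of nuclear receptors, since members of that family are known to control these genes. RefSeq promoter windows on GRCm38.p6, 250 bases before to 50 after the start, were at hand for 28 of the 37 genes by symbol and for 27025 genes in all. Entries were missing for Cpt1b, Crat, Acad9, Acaa2, Acat1, Decr1, Hsd17b4, Amacr and Abcd2. The direct repeat AGGTCANAGGTCA, the form bound by PPAR with RXR, stood in 0 of the 28 and in 0.0481% of all genes' windows, and TCAAGGTCA, bound by oestrogen-related receptors, in 0 of 28 and in 0.466%. The core AGGTCA, which lies within both of these, stood in the windows of 4 of 28 (Acadm, Acadvl, Cpt1a and Echs1; 14.3%) and of 18.1% of all genes. The GC box GGGCGG stood in 22 of 28 (78.6%) and in 38.2% of all, and CCAAT in 13 of 28 (46.4%) and in 41.1%. Both strands were searched for exact matches, and a match is only a description of these letters. Shown are Cpt1a and Acadvl, which hold the same core but moved in opposite directions, and the stretch between the outermost annotated starts of Hadha and Hadhb, which are transcribed away from each other. Capitals mark AGGTCA on either strand, as well as GGGCGG and the shorter CCAAT, and each is written 5′ to 3′ on the strand of its gene (plus strand for the stretch between Hadha and Hadhb), without bases that GENCODE M21 counts as exon.
Cpt1a, chr19:3323051-3323284, plus strand: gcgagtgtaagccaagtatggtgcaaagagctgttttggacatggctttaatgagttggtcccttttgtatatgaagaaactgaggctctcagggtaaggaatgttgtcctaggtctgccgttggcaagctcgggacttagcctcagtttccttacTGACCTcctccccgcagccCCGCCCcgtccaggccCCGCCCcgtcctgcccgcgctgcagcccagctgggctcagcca
Acadvl, chr11:70015429-70015678, minus strand: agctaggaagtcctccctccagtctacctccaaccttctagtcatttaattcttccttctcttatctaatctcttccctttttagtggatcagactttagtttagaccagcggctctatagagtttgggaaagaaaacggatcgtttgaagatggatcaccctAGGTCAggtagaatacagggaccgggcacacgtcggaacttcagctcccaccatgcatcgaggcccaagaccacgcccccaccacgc
Hadha to Hadhb, chr5:30155163-30155247, plus strand: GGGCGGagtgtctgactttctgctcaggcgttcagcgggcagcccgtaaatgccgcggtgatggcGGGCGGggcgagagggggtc
The core lies 94 bases before the RefSeq start of Cpt1a, on the opposite strand, and 87 bases before that of Acadvl, on the strand of the gene. The RefSeq start of Cpt1a (3323301) lies within the gene as GENCODE M21 places it (3322334 to 3385733), so its stretch is not upstream of the whole gene.

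All 5 enzymes needed for unsaturated chains were higher in iBAT than in both white tissues. Decr1, the mitochondrial dienoyl-CoA reductase, was measured at 755.7 to 1011 CPM in iBAT, but 85.5 to 257.7 CPM in iWAT and 66.6 to 153.1 CPM for eWAT, with log2 fold changes of 2.23 ± 0.25 and 2.77 ± 0.25. Its peroxisomal counterpart Decr2 differed less, by 1.64 ± 0.13 and 1.69 ± 0.13. The log2 ratio of Decr1 over Decr2 was higher in iBAT by 0.66 ± 0.35 (SD) against iWAT and by 1.13 ± 0.44 against eWAT, in 6 of 6 mice each (exact sign-flip permutation test, p = 0.031, adjusted 0.0625). The enoyl-CoA isomerase Eci1 of mitochondria differed by 2.49 ± 0.22 against iWAT, Eci2, found in mitochondria and peroxisomes, by 1.30 ± 0.15, and the dienoyl-CoA isomerase Ech1 by 2.30 ± 0.21.

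The 3 electron transfer flavoprotein genes, which pass the electrons of the dehydrogenases to ubiquinone, rose together. Etfdh, the oxidoreductase of the inner membrane, was measured at 668.6 to 1231 CPM in iBAT, but 52.6 to 163.1 CPM in iWAT and 45.4 to 95.3 CPM for eWAT, with log2 fold changes of 3.01 ± 0.26 and 3.60 ± 0.27. Etfa and Etfb, the subunits of the soluble carrier, differed by 2.38 ± 0.23 and 2.32 ± 0.23 against iWAT and by 2.75 ± 0.23 and 3.02 ± 0.24 against eWAT.

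The 9 genes of the peroxisomal role had smaller median differences than the other roles and, like the shuttle genes, did not all move in the same direction. Their median log2 fold change was 0.91 against iWAT and 0.96 against eWAT. The medians were 1.70 and 2.32 for the carnitine shuttle, 1.98 and 2.34 for the dehydrogenases and 2.19 and 2.71 for the core enzymes. Crot and Decr2, also peroxisomal, were counted in other roles, and the roles were not compared by a test. Of the 9 genes, 7 were higher and 1 was lower against iWAT, and 6 were higher and 1 was lower against eWAT. Abcd2 and Abcd3, which encode transporters that carry acyl-CoA into the peroxisome, stood at opposite ends.

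Abcd2 (ENSMUSG00000055782.9; chromosome 15, 91145871 to 91191799, minus strand), the transporter known for polyunsaturated very long chains, was measured at 57.3 CPM at the lowest, 87.1 at the median and 119.5 at the highest in iBAT. In iWAT the values were 182.8, 414.1 and 506, and in eWAT 272.7, 586.7 and 626.6. All brown libraries lay below all white libraries, with a difference of 4.58-fold against iWAT (log2 -2.20 ± 0.27, adjusted p = 3.72e-06) and 6.26-fold against eWAT (log2 -2.65 ± 0.27, adjusted p = 4.12e-07). Abcd3 (ENSMUSG00000028127.10; chromosome 3, 121758774 to 121815302, minus strand), known for branched and dicarboxylic chains, was measured at 320.7, 389.2 and 579 CPM in iBAT, against 43.6, 97.0 and 118 CPM for iWAT and 73.7, 82.0 and 95.4 CPM for eWAT. It was 4.64-fold and 4.998-fold higher in iBAT. Per kilobase, Abcd2 made up 11.7% ± 3.89 (SD, n = 6) of both genes in brown fat, but 72.9% ± 2.75 in iWAT and 79.0% ± 7.36 in eWAT. This pair was chosen after its values were seen, and its share was not tested.

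The peroxisomal enzymes showed smaller differences. Amacr, the racemase that prepares branched chains, was 3.29-fold higher in iBAT than in iWAT and 3.59-fold higher than in eWAT. Ehhadh and Hsd17b4, the bifunctional enzymes of the peroxisomal spiral, differed by 1.11 ± 0.27 and 0.91 ± 0.22 on the log2 scale against iWAT. The ratio of these 2 did not differ detectably between iBAT and iWAT, with a mean log2 difference of 0.10 over 6 mice and single mice between -0.49 and 0.71 (exact sign-flip permutation test, p = 0.656, adjusted 0.656). Ehhadh varied most among the brown libraries, from 61.4 to 166 CPM, and overlapped with iWAT, where it reached 72.4 CPM. Acaa1a and Acaa1b, the peroxisomal thiolases, differed by 0.65 ± 0.15 and 1.40 ± 0.35 against iWAT, while Acaa1b did not pass the test against eWAT (0.69 ± 0.34, adjusted p = 0.099) except without the 4 libraries (0.4996, adjusted p = 0.00777). In wild type libraries only, the call of Acaa1a against iWAT and that of Ehhadh against eWAT were lost (adjusted p = 0.0556 and 0.0744), at log2 differences of 0.65 and 1.06. Hacl1, which shortens branched chains by 1 carbon, was 1.49-fold higher than in iWAT (adjusted p = 0.0158), a call that was lost without the 4 libraries (log2 0.33, adjusted p = 0.12), in wild type libraries only (0.44, adjusted p = 0.159) and without the mouse wt replicate 1, ko replicate 1 or ko replicate 2 (adjusted p = 0.054, 0.0715 and 0.0633). Acox3, the oxidase of branched chains, did not pass the test against iWAT (0.56 ± 0.25, adjusted p = 0.0671) or eWAT (0.24 ± 0.25, adjusted p = 0.424). Without the mouse ko replicate 3 its differences were 0.57 and 0.65, with adjusted p-values of 0.00219 and 0.000879 by edgeR, and without the 4 libraries 0.62 and 0.645 (adjusted p = 0.00345 and 0.0005001). DESeq2 gave an adjusted p of 0.0495 against iWAT.

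**Figure D3:**
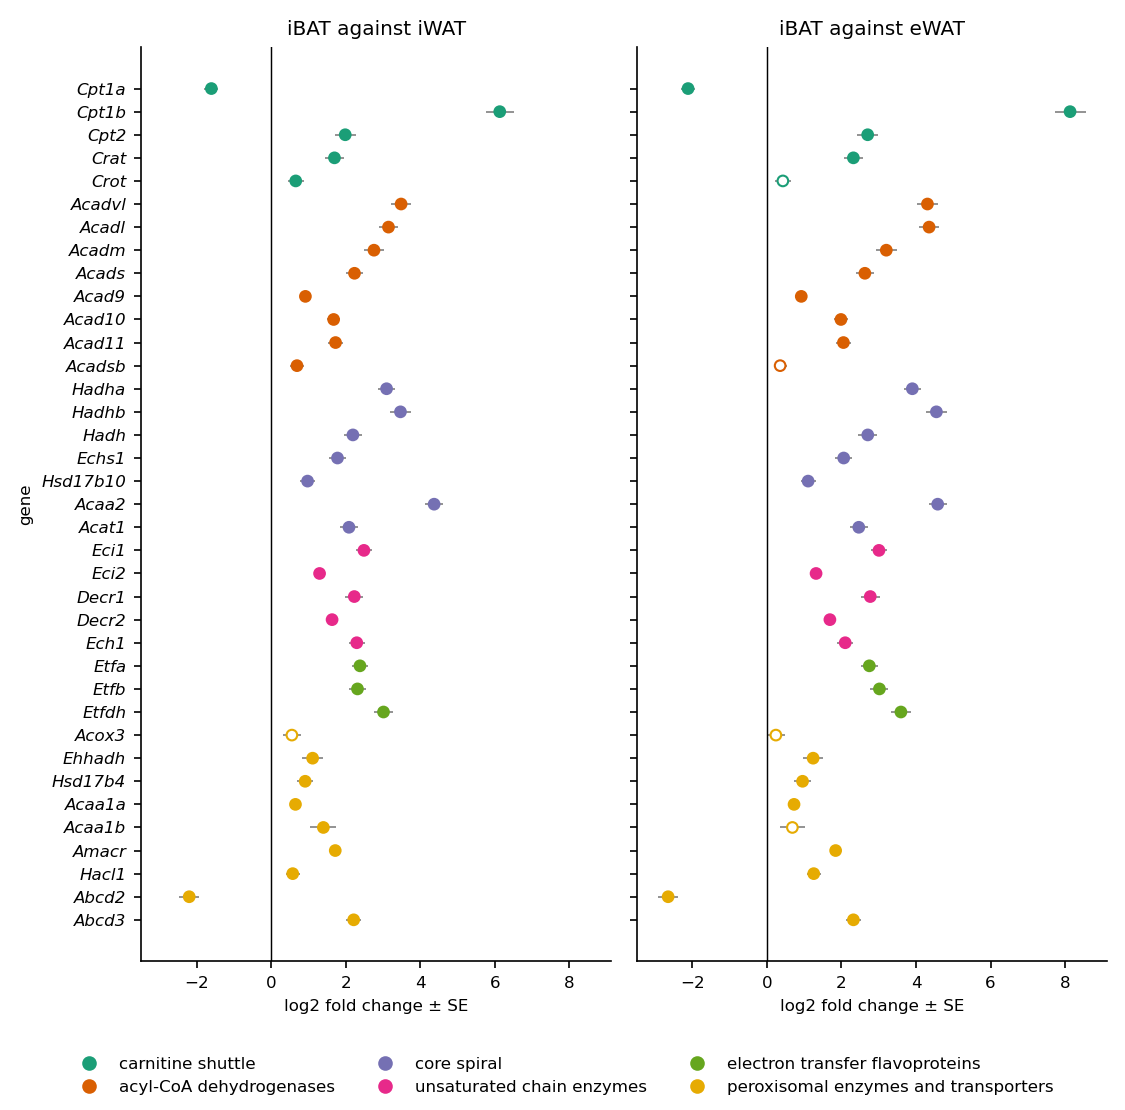
Log2 fold change with its standard error for each gene, iBAT against iWAT (left) and against eWAT (right), coloured by role, with filled points past the adjusted p threshold and open points not past it. Cpt1b lies farthest to the right in both panels, at 6.13 and 8.13, and Cpt1a and Abcd2 are the only genes left of 0.

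The order of the levels per kilobase also differed between the tissues. In iBAT Hadhb stood highest with 2134 ± 312 CPM per kb (SD, n = 6), followed by Acaa2 (1755 ± 109), Acadl (1684 ± 151) and Acadvl (1647 ± 183). The range of Hadhb overlapped with those of the other three, which also overlapped among themselves, so that these 4 cannot be ordered beyond their spread. In iWAT Etfb (302 ± 100), Ech1 (226 ± 71.5) and Etfa (215 ± 68.3) came first, with overlapping ranges, and in eWAT Ech1 (258 ± 44.7) came before Etfb (186 ± 50.5), again with overlap. Hadhb held rank 6 in iWAT and rank 9 in eWAT, and Acaa2 rank 15 in both. Cpt1a was the lowest of the 37 genes in iBAT, whereas Cpt1b was the lowest in eWAT.

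Sequence shared with other genes leaves some of these counts uncertain, because reads that match several genes were divided by a model. In 7 of the 37 genes, over 15% of the 31-base words of their transcripts also occurred in 1 other gene. Acaa1b shared 39.4% with Acaa1a, and Acad10 shared 22.9% with Acad12. Cpt1b shared 79.7% of its words with Gm44502, which had a mean of 5.28 CPM in iBAT and of 0.387 and 0.302 CPM in iWAT and eWAT, against 1229, 17.6 and 4.38 CPM for Cpt1b itself.

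Genes around the pathway were counted in the same way. Of 21 other fatty acid oxidation genes, 18 were higher and 1 was lower in iBAT than in iWAT, and 19 were higher and 1 was lower than in eWAT. Slc25a20, the carrier that exchanges acylcarnitine across the inner membrane, had the largest differences (log2 3.30 ± 0.24 and 3.80 ± 0.25), followed by Etfrf1, a regulator of the electron transfer flavoprotein, with 2.47 ± 0.18 and 2.66 ± 0.18. Cpt1c, the neuronal member of the Cpt1 family, was the gene that was lower (-1.88 ± 0.18 and -1.66 ± 0.18). All 17 genes of the TCA cycle, which consumes the acetyl-CoA of the spiral, were higher in both comparisons, with medians of 2.81 and 3.22. Among 16 genes of peroxisome assembly, 11 were higher than in iWAT and 12 higher than in eWAT, 0 were lower, and the medians were 0.71 and 0.84.

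Of 14 regulators of the pathway, 11 were higher and 1 was lower in iBAT in each comparison. Pdk4, which holds back glucose oxidation, and Ppara, the nuclear receptor of fatty acids, had the largest differences against iWAT, with log2 values of 4.37 ± 0.53 and 3.97 ± 0.44. Nrip1, a corepressor of nuclear receptors, was lower by 4.66-fold against iWAT and by 7.16-fold against eWAT. The acetyl-CoA carboxylases Acaca and Acacb, whose product malonyl-CoA inhibits Cpt1, were also higher, by 1.86 ± 0.36 and 2.48 ± 0.33 on the log2 scale against iWAT. The 6 genes of the ketone body list were split, with 3 higher and 3 lower against iWAT and 3 higher and 2 lower against eWAT. Bdh1 and Bdh2 had means of only 0.197 and 0.117 CPM in iBAT, where 3 counts made 0.186 to 0.235 CPM. Acss1, the mitochondrial acetyl-CoA synthetase, was counted in this list but is not a ketone body enzyme itself. It was higher by 3.79 ± 0.18 and 4.98 ± 0.19.

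Between the white tissues the differences were smaller and depended on a few libraries. With all libraries, 6 of the 37 genes were higher in iWAT than in eWAT and 0 were lower (edgeR, adjusted p below 0.05), where 5.70% of all genes were higher and 4.50% lower, and 14 of the 37 had an unadjusted p below 0.05, as did 25.5% of all genes. The 6 were Cpt1b (log2 2.0004 ± 0.33), Acadl (1.20 ± 0.25), Hadhb (1.08 ± 0.25), Acadvl (0.82 ± 0.24), Hadha (0.81 ± 0.21) and Hacl1 (0.68 ± 0.19). With the mouse as a block, the call of Acadvl was lost (log2 0.78, adjusted p = 0.0686 by edgeR). The median of the 37 genes was 0.31, beside 0.01 over all genes. The 6 iWAT and 6 eWAT libraries overlapped for all 37 genes, while 4.62% of all genes did not overlap. Leaving out 1 mouse at a time gave 10 genes without wt replicate 3 and 2 or 3 genes without any other mouse.

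Of the 4 libraries with markers of another tissue, 2 were also the lowest of their tissue for most genes. In iWAT wt replicate 3, the library with the most lymph node marker counts, 33 of the 37 genes were at their lowest of the 6 iWAT libraries, and in eWAT ko replicate 3, the library with epididymis markers, 29 were at their lowest of the 6 eWAT libraries. The summed adipocyte markers were likewise lowest in these 2 libraries, with 16930 CPM against 20860 to 40730 in the other iWAT libraries, and 15740 CPM against 21990 to 38040 in the other eWAT libraries. Relative to the adipocyte markers, the 37 genes amounted to 0.195 in iWAT wt replicate 3 and 0.219 in eWAT ko replicate 3.

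Leaving out the 4 libraries kept only wt replicates 1 and 2 and ko replicate 3 of iWAT, and all eWAT libraries but ko replicate 3. With these, 21 of the 37 genes were higher in iWAT and 2 were lower, with 5.70% and 4.55% of all genes tested. They were 3 of 5 genes of the carnitine shuttle, 6 of 8 dehydrogenases, 6 of 7 core enzymes, 2 of 5 enzymes of unsaturated chains, all 3 electron transfer flavoproteins and 1 of 9 peroxisomal genes. The largest differences were those of Cpt1b (2.27 ± 0.25), Acadl (1.40 ± 0.13), Hadhb (1.34 ± 0.17), Acadvl (1.06 ± 0.15) and Hadha (1.01 ± 0.17). Cpt1a (-0.91 ± 0.16, adjusted p = 0.00208) and Acaa1b (-0.67 ± 0.17, adjusted p = 0.0263) were lower in iWAT, at -0.51 and -0.72 with all libraries. In this comparison Cpt1a and Cpt1b again moved in opposite directions. In wild type libraries only, 0 of the 37 genes passed by edgeR and 4 had an unadjusted p below 0.05, as did 14.6% of all genes, and 0.6246% of all genes were higher and 0.7908% lower. The log2 differences of the 6 genes called with all libraries then lay between 0.58 (Hacl1) and 1.78 (Cpt1b).

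**Figure D4:**
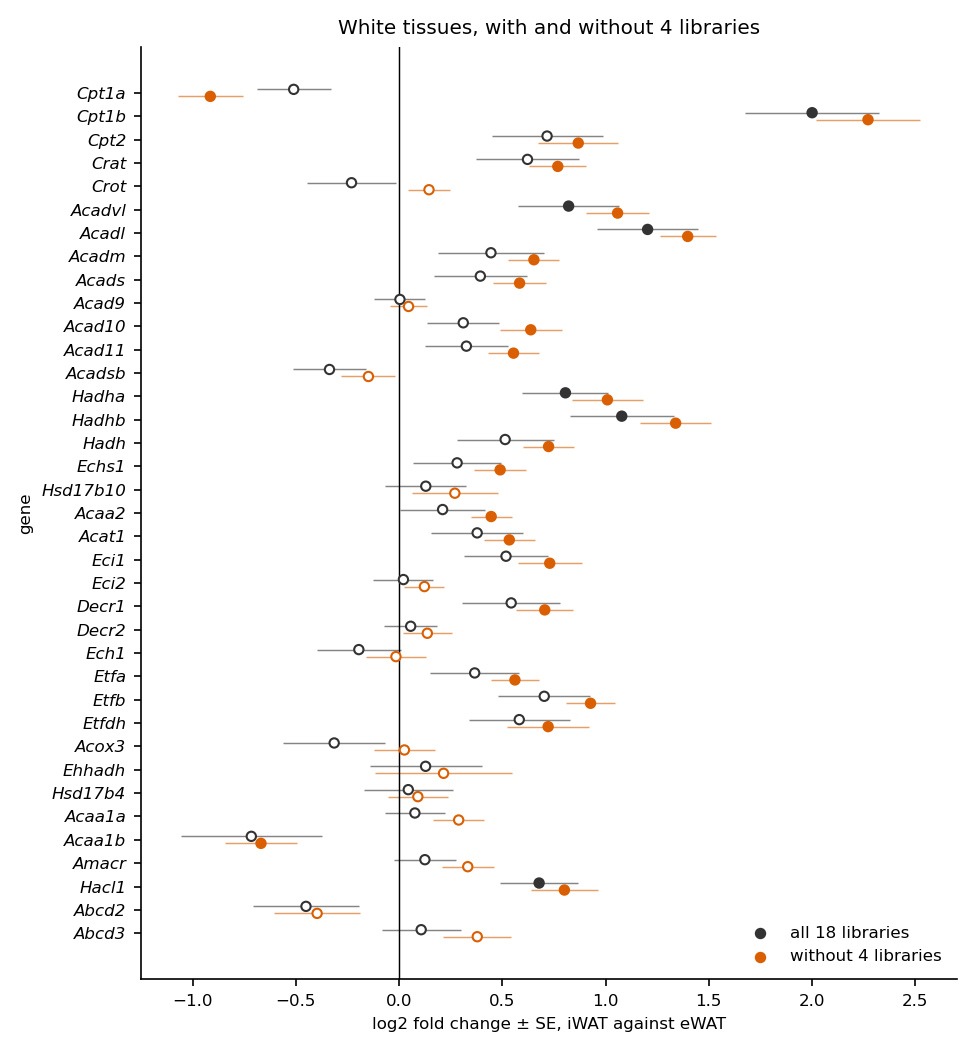
Log2 fold change with its standard error of each gene, iWAT against eWAT, from all 18 libraries (black) and without the 4 libraries that held markers of another tissue (orange), with filled points past the adjusted p threshold. There are 6 filled black points and 23 filled orange points, and Cpt1a and Acaa1b are the filled points left of 0.

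The loss of Gm15551 changed 0 of the 37 genes at an adjusted p below 0.05, by edgeR or by DESeq2. Across the tissues, the log2 fold changes of knockout against wild type lay between -0.20 (Hsd17b10) and 0.28 (Acox3), with a median of -0.02 and standard errors of 0.10 to 0.28. The lowest unadjusted p was 0.136, for Cpt1a, which was higher in the knockout by 0.23 ± 0.15 on the log2 scale (edgeR, adjusted p = 0.9999). Thus 0 of the 37 genes had an unadjusted p below 0.05, where 2.19% of all genes did and 0.00534% passed the adjusted threshold.

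Within single tissues the standard errors were larger, at 0.19 to 0.51. In iBAT the 37 log2 fold changes lay between -0.15 and 0.19, and 0 genes passed (0.00% of all genes, with 1.27% at an unadjusted p below 0.05). In iWAT they lay between -0.18 and 0.41 (median 0.04, with 27 of 37 above 0), and 0 passed (0.00% of all genes, 2.22% unadjusted). In eWAT they lay between -0.36 and 0.66 (median -0.15, with 32 of 37 below 0), and 0 passed (0.00534% of all genes, 4.35% unadjusted). The 9 adipocyte markers were likewise all below 0 in eWAT, with a median of -0.18, and eWAT ko replicate 3, in which 29 of the 37 genes were at their lowest, is 1 of its 3 knockout libraries. Without the 4 libraries the eWAT median was 0.07, with 25 of 37 genes above 0. That of iWAT was 0.04, with 22 of 37, but its knockout group was then ko replicate 3 alone. Without the mouse ko replicate 3 the eWAT median was also 0.07, with 25 of 37 above 0, while that of iWAT turned to -0.08, with 22 of 37 below 0. The iWAT knockout libraries left were then ko replicates 1 and 2, which held skeletal muscle and lymph node markers. DESeq2 also called 0 in each tissue. The 1 gene with an unadjusted p below 0.05 was Crot in eWAT (log2 0.66 ± 0.30, unadjusted p = 0.0409, adjusted p = 1 by edgeR). Its CPM was 38.2, 41.5 and 36.2 in the wild type and 44.2, 37.7 and 102 in the knockout libraries, so that the groups overlapped and the difference rested on ko replicate 3, the library with epididymis markers. Across the tissues the log2 fold change of Crot was 0.22 ± 0.18, and -0.05 without the 4 libraries. In eWAT the knockout and wild type libraries were clear of each other for 1 of the 37 genes, Abcd3, at 76.4, 82.0 and 73.7 CPM in the wild type and 86.6, 82.03 and 95.4 CPM in the knockout (log2 0.19 ± 0.29), where 5.25% of all genes were clear of each other.

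The main brown fat genes showed no detectable change with the genotype. Cpt1b was measured in iBAT at 1423, 1260 and 948.5 CPM in the wild type and at 1545, 1197 and 1003 CPM in the knockout, with a log2 fold change of 0.04 ± 0.45. Acaa2 differed by -0.01 ± 0.31 and Hadhb by 0.03 ± 0.38 in the same tissue. In the joint test of whether the genotype effect differed between tissues, 0 of the 37 genes passed (0.00% of all genes, 1.41% at an unadjusted p below 0.05), and the lowest unadjusted p among them was 0.224, for Crot.

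**Figure D5:**
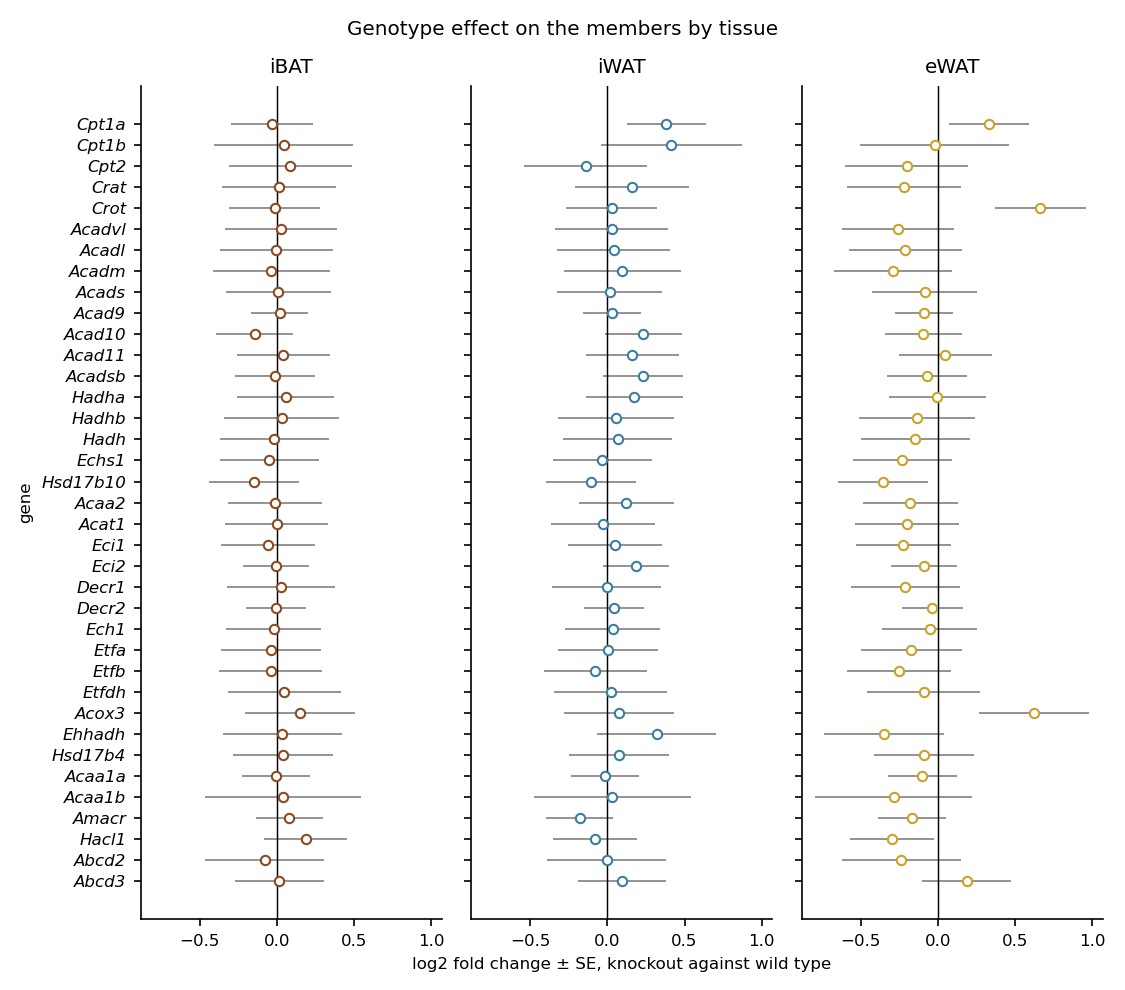
Log2 fold change with its standard error of each gene, knockout against wild type, in iBAT, iWAT and eWAT, with open points for genes not past the adjusted p threshold. All points are open, those of iBAT lie between -0.15 and 0.19, and Crot and Acox3 in eWAT lie farthest to the right, at 0.66 and 0.62.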

How the data were processed

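The authors used cutadapt to filter paired-end reads of polyadenylated RNA (NEBNext Ultra II libraries) and salmon for quantification on GENCODE M22 (GRCm38), alone or with RNAcentral. The table deposited by the authors gives 1 estimated count, a whole number that was not normalised, for each gene and library. The strand setting and the reference chosen for this table are not given in the sources used here.

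In R 4.3.3, edgeR 4.0.16 was used for quasi-likelihood F-tests of the 18728 genes that its filterByExpr function kept with the groups given. TMM scaling was applied (factors 0.617 to 0.744 in iBAT and 1.06 to 1.44 in the white tissues). Tissue contrasts and the genotype effect across tissues came from 1 model with both terms over all 18 libraries, and effects within tissues and the interaction from a model with 1 mean per group. Neither model held a term for the mouse. P-values were adjusted by Benjamini-Hochberg over all genes tested at a threshold of 0.05. Standard errors (SE) were obtained from the log2 fold change and F. CPM values are TMM-scaled, and levels per kilobase use the longest principal transcript of GENCODE M21. A count of 0 allows up to 3 counts, and such limits cover counting error only. Ratios of 4 gene pairs were compared between tissues by a two-sided exact sign-flip permutation test over the 6 mice (log2 of CPM with a prior count of 2), adjusted over 12 comparisons. Groups and replicate numbers came from the library titles.

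Libraries of different tissues with the same genotype and number carry the same mouse identifier in the labels, so tissues are paired by mouse. The correlation of deviations between tissues of a mouse had a median of 0.057 over 18 pairs. On simulated counts with the real libraries, 56 of 100 genes with a log2 change of 1 and 84 of 100 with a change of 2 were recovered between iBAT and iWAT, and 72 and 94 of 100 between genotypes. Before the change each gene had the same mean in all libraries, few genes were changed, and no mouse effect was simulated. Recovery in the real data may therefore differ.

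The 37 genes and all lists were chosen with earlier results of these data known. All 37 genes were accounted for, and those with the largest or opposite iBAT differences and 1 to 3 of each role were described by library. The ratio to adipocyte markers, the share of Abcd2, the motifs GGGCGG and CCAAT and the choice of printed sequences were added after seeing the values. The alternatives tried were scaling with DESeq2 size factors, testing without a filter, DESeq2 1.42.0, a replicate block, wild type libraries only, leaving out 4 libraries or each mouse, another prior count, and, chosen after seeing the data, leaving out the mitochondrial genome and summing counts per mouse.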

Additional observations from a re-analysis of the deposited data

Results flagged for a closer look

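For Crot and Acox3, a single eWAT library stood far above the others. Crot was measured at 102 CPM in eWAT ko replicate 3 and at 44.2 CPM in the next highest eWAT library, and this gap made up 0.878 of the whole range of the 6 libraries. Acox3 was measured at 164 CPM in the same library and at 73.4 CPM in the next, a gap of 0.764 of the range. Both gaps exceeded Dixon's 95% critical value for 6 samples. The library held 3582 CPM of summed epididymis markers and 103 CPM of summed testis markers, and their part in both values was not tested. Of 111 comparisons of this kind over 37 genes and 3 tissues, 2 exceeded the critical value, where chance at 1 in 20 gives 5.55.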

How the results depend on the processing

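Results were recomputed with DESeq2 size factors, without a filter, with DESeq2, with the replicate block, wild type libraries only, leaving out the 4 libraries with markers of another tissue, leaving out each mouse and, chosen after seeing the data, leaving out the mitochondrial genome or summing counts per mouse. Of 133 recomputed counts of genes, 124 stayed within 1.5 times the reported count. The exceptions were all in iWAT against eWAT, where 6 genes were higher: 0 in wild type libraries only, 21 without the 4 libraries, and 2 to 10 when each mouse was left out, with 2 lower without the 4 libraries. The median log2 fold change was 1.51 against iWAT and 0.53 for iWAT against eWAT without the 4 libraries. In the other 37 cases it moved by less than the median standard error of the genes. The cause was not tested. With the mouse as a replicate block, 34 genes were higher and 2 lower in iBAT against iWAT, 31 and 2 against eWAT, and 5 were higher in iWAT against eWAT. Since each mouse has 1 genotype, the block between genotypes was the replicate number, with which 0 genes passed. Between same-numbered wild type and knockout libraries the deviations correlated with a median of -0.028 (range -0.465 to 0.551, 9 pairs). The median between tissues of a mouse was only 0.057, so these correlations cannot decide whether the numbers pair the genotypes. This block rests on a shared number only.

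Some genes changed sign in iWAT against eWAT. They were, in wild type libraries only, Crot (0.10), Acad9 (-0.0529), Eci2 (-0.12), Ehhadh (-0.20) and Hsd17b4 (-0.0385), and without the 4 libraries, Crot (0.15) and Acox3 (0.0259). When each mouse was left out, the values ranged from -0.33 to 0.11 for Crot, -0.10 to 0.0846 for Acad9, -0.0612 to 0.28 for Hsd17b10, -0.12 to 0.15 for Eci2, -0.45 to 0.0762 for Acox3, -0.12 to 0.38 for Ehhadh, -0.0564 to 0.20 for Hsd17b4, -0.0517 to 0.19 for Acaa1a, -0.0049 to 0.27 for Amacr and -0.0029 to 0.22 for Abcd3. Between genotypes, Crot was -0.0507 without the 4 libraries, and the log2 ratio of Ehhadh over Hsd17b4 in iBAT against iWAT ranged from -0.0178 to 0.22 over the mice left out. The remaining values of single genes followed here kept their direction, with 34 newly past the threshold and 35 no longer past it. These were the tissue contrasts of all genes and the genotype effect across tissues of 4 genes. Genotype effects within single tissues were not followed gene by gene, and their medians changed sign as given above. The standard errors of 0.10 to 0.28 between genotypes limit which differences could be seen. They came from a model that treats the 3 libraries of a mouse as independent, with 3 mice per genotype, so they are not errors over mice. With counts summed per mouse, 0 genes passed between genotypes.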
